A study of Mus musculus with 2 samples.

Results

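The AP-1 and Egr immediate early genes are described here in 2 RNA sequencing libraries of FACS-sorted cells, labelled aerobic tumor cells, from LLC tumors, which grow from the mouse Lewis lung carcinoma line and were placed subcutaneously in wild type C57BL/6 mice. One library came from mice given vehicle and the other from mice given clodronate, a drug used to remove phagocytic cells, and both carry the same tissue, strain and genotype labels. The labels do not say how many mice were used or whether they were pooled, their age, the gate of the sort or the carrier and dose of the drug, and a growth protocol naming a blood progenitor line conflicts with the tumor labels. The members were chosen by symbol, namely Fos, Fosb, Jun, Junb, Jund, Atf3, Egr1, Egr2, Egr3 and Ier2, and all 10 were found on 1 line each among 22886 genes. The design asks how their levels compare between the vehicle and the clodronate library.

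Immediate early genes are transcribed within minutes of a stimulus without new protein synthesis, mostly through MAP kinases that act on serum response factor, its ternary complex partners and CREB. Fos and Jun proteins pair through leucine zippers to form AP-1, which binds DNA and drives later response genes, and Egr proteins bind GC-rich sites through zinc fingers. In macrophages these genes respond to adhesion, growth factors and microbial signals, and in many tissues they are also known to respond to enzymatic dissociation and sorting.

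Promoter sequences were taken from RefSeq (GRCm38.p6) for the 7 members with an entry, Fos, Fosb, Jun, Junb, Jund, Atf3 and Egr2, and Egr1, Egr3 and Ier2 had none. Egr2 had 5 windows, of which the 1 nearest to the start of its GENCODE M21 transcript was used. Each window ran from 250 bases before to 50 bases after the transcription start and is written from 5′ to 3′ on the strand of the gene. Those of Fos, Fosb, Jun, Atf3 and Egr2 are shown because they hold matches to response elements of AP-1, CREB, Egr or serum response factors and because their genes cover the highest level, small and large differences and the lower direction. Capitals mark motif matches. The windows lie at chr12:85473640-85473939 on the plus strand for Fos, chr7:19309996-19310295 on the minus strand for Fosb, chr4:95052173-95052472 on the minus strand for Jun, chr1:191183284-191183583 on the minus strand for Atf3 and chr10:67537619-67537918 on the plus strand for Egr2.
Fos: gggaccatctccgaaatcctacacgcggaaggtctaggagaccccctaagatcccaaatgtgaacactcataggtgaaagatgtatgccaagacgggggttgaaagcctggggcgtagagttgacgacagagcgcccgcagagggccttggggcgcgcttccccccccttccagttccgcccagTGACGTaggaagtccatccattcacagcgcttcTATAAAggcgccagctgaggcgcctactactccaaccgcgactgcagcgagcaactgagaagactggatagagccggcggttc
Fosb: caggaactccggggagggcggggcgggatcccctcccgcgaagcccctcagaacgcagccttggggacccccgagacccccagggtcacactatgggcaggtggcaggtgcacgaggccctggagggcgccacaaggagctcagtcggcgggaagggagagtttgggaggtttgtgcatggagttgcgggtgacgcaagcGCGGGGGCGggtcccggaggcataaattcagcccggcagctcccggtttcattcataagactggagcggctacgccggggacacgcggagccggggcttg
Jun: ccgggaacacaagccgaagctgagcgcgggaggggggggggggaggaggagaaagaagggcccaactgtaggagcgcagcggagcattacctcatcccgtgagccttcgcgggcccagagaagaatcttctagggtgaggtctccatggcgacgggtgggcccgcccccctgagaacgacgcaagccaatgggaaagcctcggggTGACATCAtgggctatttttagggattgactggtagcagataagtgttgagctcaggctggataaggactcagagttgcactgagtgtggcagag
Atf3: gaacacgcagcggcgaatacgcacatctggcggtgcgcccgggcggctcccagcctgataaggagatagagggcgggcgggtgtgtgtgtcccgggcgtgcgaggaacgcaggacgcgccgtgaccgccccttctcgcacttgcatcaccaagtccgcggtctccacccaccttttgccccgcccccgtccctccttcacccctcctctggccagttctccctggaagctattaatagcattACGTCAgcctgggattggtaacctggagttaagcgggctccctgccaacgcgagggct
Egr2: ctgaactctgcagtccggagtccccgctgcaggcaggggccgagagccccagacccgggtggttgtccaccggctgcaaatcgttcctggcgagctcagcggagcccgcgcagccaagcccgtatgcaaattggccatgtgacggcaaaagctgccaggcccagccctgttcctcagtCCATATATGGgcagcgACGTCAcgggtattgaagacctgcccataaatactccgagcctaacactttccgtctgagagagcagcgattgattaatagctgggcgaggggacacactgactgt

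Motifs were searched on both strands as exact letters. In Fos, the TATA box letters TATAAA began 33 bases before the start, and the core of the cAMP response element, to which CREB and ATF proteins bind, began 66 bases before it with the letters TGACGT. The same core stood on the other strand in Atf3, 8 bases before the start, and in Egr2, 56 bases before it. Egr2 also held a CArG box, the element of serum response factor, as CCATATATGG 72 bases before the start. The window of Fosb held GCGGGGGCG, a match to the Egr motif GCGNGGGCG, 50 bases before the start. That of Jun held TGACATCA, a variant of the AP-1 and ATF site, 45 bases before it.

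Among 32851 promoter windows of the same length, 7.51% held the cAMP response core, 5.55% the Egr motif, 3.62% the variant site of Jun, 1.63% the CArG box and 13.6% the TATA box letters. Junb held the letters TATAAA as well, but they began 1 base after the start and not before it as in Fos. The full cAMP response element TGACGTCA, found in 1.79% of the windows, was in 0 of the 7 member windows, and so was the AP-1 site TGACTCA, found in 5.20%. The core is a part of the full element and was added after the sequences had been seen, so its 3 matches among 7 windows are a description. The variant site carries the name of Jun (jun1-type), so its match in Jun is a description too.

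The levels are RPKM, reads scaled to transcript length and library size. They can be compared between genes within a library as far as the transcript lengths used, which are not known, are right. The members stood in the same order in both libraries. Fos was the highest, at 568 RPKM with vehicle and 604 RPKM with clodronate, above 98.5% of the 10982 genes kept in each, where kept means that both libraries averaged at least 1 RPKM. Fosb followed at 321 and 454 RPKM, then Junb at 260 and 350 RPKM. At the other end, Egr3 had 4.43 and 3.23 RPKM and lay above 25.8% and 19.0% of the genes kept. Of neighbours in the order, only Jund and Ier2 in the vehicle library, at 125 and 123 RPKM, had counting intervals that overlapped. These intervals do not cover errors from transcript length or GC content, so the order of close neighbours is uncertain. All 10 members passed the filter on low values.

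**Figure D1:**
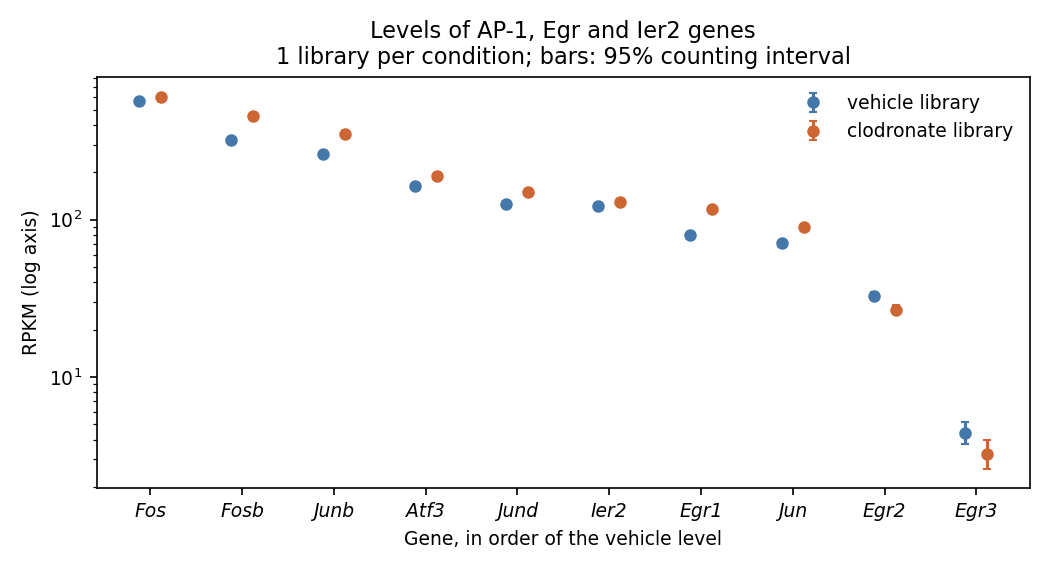
RPKM of the 10 genes on a log axis, with 1 point per library (blue, vehicle; orange, clodronate) and 95% counting intervals from approximate read numbers as bars. The order runs from Fos to Egr3 in both libraries, and the orange point is above the blue one for each gene except Egr2 and Egr3.

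With 1 library per condition there was no replicate check and no test. For the log2 ratio, 1 was added to the RPKM of each library before the clodronate value was divided by that of vehicle, so that differences of low genes are understated, and the fold values given beside it have no pseudocount. Of the 10 members, 8 were higher and 2 lower in the clodronate library, while 51.6% of all genes kept had a log2 ratio above 0. The members had a median log2 ratio of 0.23, from -0.36 to 0.55, against a median of 0.02 for all genes kept. Since the members were chosen with earlier results of these data known, both contrasts are descriptions. None reached 3-fold in either direction, a size that 5.18% of all genes kept reached (2.86% higher, 2.32% lower), and none reached 2-fold (13.7% of genes) or 1.5-fold (32.9%). Levels in bulk RNA do not tell fewer expressing cells from less RNA per cell.

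The 95% intervals given for the ratios cover counting error only. They rest on approximate read numbers from the spacing of low RPKM values, which implies about 12800000 fragments in the vehicle and 10400000 in the clodronate library, and differences between mice, sorts and library preparations are not in them. The approximate reads of a member ranged from 154 for Egr3 to 15593 for Fosb in the vehicle library and from 91 for Egr3 to 17948 for Fosb in the clodronate library. The numbers of Egr3 are upper limits. The interval excluded equal levels for 9 of the 10 members. It was computed for the members only. The share of all genes for which it does so is not known, and this count does not set the members apart. Nor does the interval cover the scaling between the libraries. Upper-quartile scaling put the log2 ratio of Fos at 0.03, below the low end of its counting interval, 0.055. At high read numbers a small difference is enough, as for Fos at a ratio of 1.06.

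Fos proteins form AP-1 by pairing with Jun proteins. Fos, at 568 and 604 RPKM, differed little, with a clodronate to vehicle ratio of 1.06 (95% counting interval 1.04 to 1.09). Fosb, at 321 and 454 RPKM, was 1.41 times as high (1.38 to 1.44). Thus the Fosb level was 0.565 of the Fos level in the vehicle library and 0.751 of it in the clodronate library. The log2 ratios of the 2 genes differed by 0.41, and by 0.13 after the correction for GC content and transcript length. Both together came to 890 RPKM after vehicle and 1059 RPKM after clodronate.

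The Jun genes, whose proteins pair with one another and with Fos and ATF proteins, were all higher in the clodronate library. Junb, at 260 and 350 RPKM, had a ratio of 1.35 (1.30 to 1.39). Jun stood at 70.9 and 89.7 RPKM, with a ratio of 1.27 (1.20 to 1.33). Jund, the member of the family that is usually expressed without a stimulus, stood at 125 and 150 RPKM, with a ratio of 1.20 (1.15 to 1.25). The make-up of the family was alike in both libraries, since Junb gave 57.0% and 59.3% of the summed Jun family RPKM, Jund 27.5% and 25.4% and Jun 15.5% and 15.2%. The 3 genes together came to 456 RPKM after vehicle and 590 RPKM after clodronate.

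Atf3, a stress-induced factor that pairs with Jun proteins and often represses, had 165 and 189 RPKM, a ratio of 1.15 (1.10 to 1.20). Ier2, a short nuclear regulator encoded by a single exon, had 123 and 129 RPKM, and its ratio of 1.05 had an interval from 0.991 to 1.12 that included equal levels.

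The Egr genes did not move together. Egr1, a zinc finger factor induced by serum and growth factors, had 79.4 and 117 RPKM and the highest ratio of the members, 1.47 (1.40 to 1.55). Egr2, a relative also linked to alternative macrophage activation, was lower in the clodronate library, at 32.9 and 26.8 RPKM with a ratio of 0.814 (0.745 to 0.889). Egr3 was lower as well, at 4.43 and 3.23 RPKM with a ratio of 0.728 (0.556 to 0.950), the widest interval of the members. Its reads were taken over its whole mm9 locus, intron included, so they are an upper limit. The true counting interval is therefore wider and may include equal levels. The Egr1 level was therefore 2.41 times that of Egr2 in the vehicle library and 4.36 times that of Egr2 in the clodronate library. Their log2 ratios differed by 0.84, and by 0.82 after the same correction. Egr4, the remaining family gene, was listed at 0 in both.

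**Figure D2:**
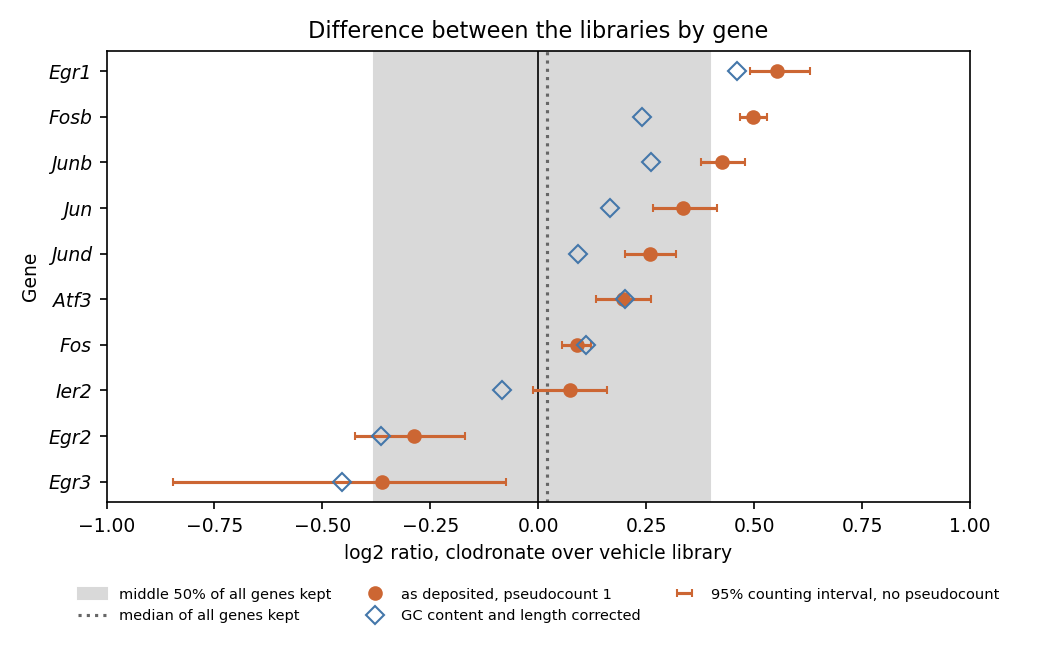
log2 ratio by gene, clodronate over vehicle, from Egr1 at 0.55 to Egr3 at -0.36 (filled circles), with 95% counting intervals and, as open diamonds, the value after correction for GC content and transcript length. The grey band holds the middle 50% of all genes kept, from -0.38 to 0.40, uncorrected, and only the circles of Egr1, Fosb and Junb lie above it. For genes averaging at least 50 RPKM the middle 50% runs from -0.31 to 0.27, not drawn, and Jun, at 0.34, also lies above that range.

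GC content moved with the ratios in these libraries. The median log2 ratio was -0.24 in the lowest of 10 bins of genes by GC content and 0.29 in the highest, and all 10 members lay in the upper 5 bins, with transcript GC content from 51.3% for Egr3 to 67.1% for Jund. In these upper 5 bins 60.7% of the genes had a log2 ratio above 0, in place of 51.6%. The 8 members that averaged at least 50 RPKM were all above 0, as were 49.2% of all genes at that level and 59% of those also in the upper 5 GC bins. After the medians of the GC bins and then of the length bins were subtracted, 7 of the 10 members were above 0, beside 50% of all genes, and the median of the members was 0.14. Fosb moved from 0.50 to 0.24, Jun from 0.34 to 0.16, Junb from 0.43 to 0.26, Jund from 0.26 to 0.09 and Ier2 from 0.07 to -0.08, whereas Egr1 kept 0.46 of 0.55, and Fos (0.09 and 0.11) and Atf3 (0.20 and 0.20) were nearly as before. Egr2, at -0.29, and Egr3, at -0.36, became -0.36 and -0.45. The middle 50% of the corrected values of all genes ran from -0.35 to 0.35, with Egr1 above it and Egr2 and Egr3 below it.

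**Figure D3:**
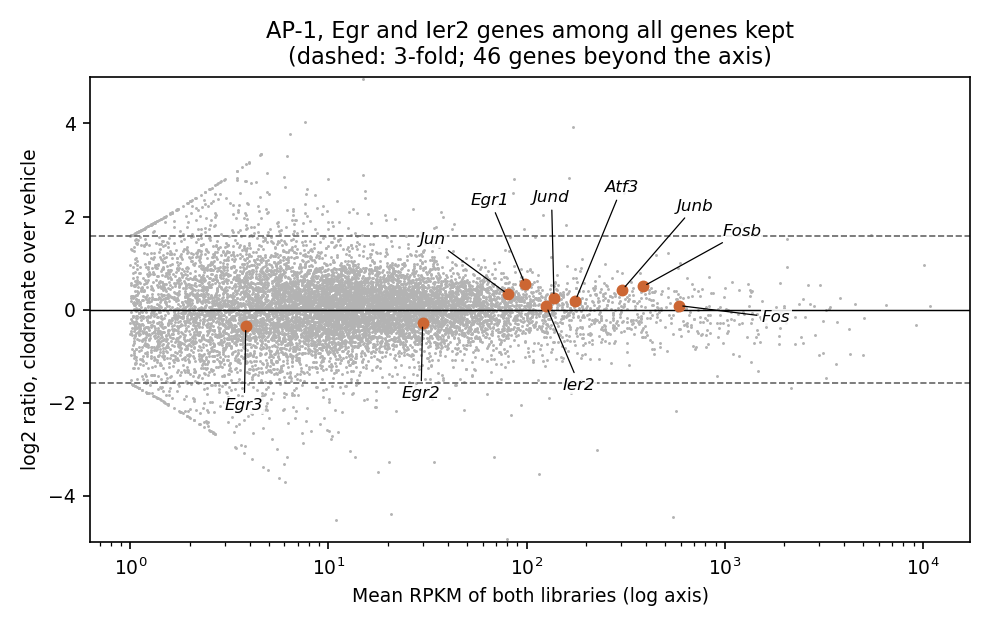
log2 ratio of each gene kept (grey) against its mean RPKM on a log axis, with the members in orange and 3-fold marked by dashed lines. The 10 members lie between the dashed lines, with 8 above and 2 below 0, and 46 genes lie beyond the axis limits of 5 in either direction.

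In mm9, the build of the files, Fos lay on chromosome 12 from 86814851 to 86818219, Fosb on chromosome 7 from 19888045 to 19895394, Jun on chromosome 4 from 94715727 to 94718913 and Junb on chromosome 8 from 87500808 to 87502647. Jund and Ier2 lay on the same chromosome as Junb, from 73221638 to 73224515 and from 87185230 to 87186751. Atf3 lay on chromosome 1 from 192994176 to 193007212, Egr1 on chromosome 18 from 35020861 to 35024610, Egr2 on chromosome 10 from 67000617 to 67004936 and Egr3 on chromosome 14 from 70477252 to 70479964. The matched GENCODE M21 transcripts have 1 exon for Jun, Junb, Jund and Ier2, 2 for Egr2 and Egr3, 3 for Egr1 and 4 for Fos, Fosb and Atf3. The M21 transcript of Egr3, at 3940 bases, is longer than its mm9 locus, at 2713 bases. That of Jund, at 1668 bases in 1 exon, is shorter than its mm9 locus, at 2878 bases. The GC content and length used to correct these genes may therefore differ from those of the models behind their RPKM. The pentamer ATTTA, the core of the AU-rich elements through which such short-lived mRNA is decayed, stood in the last 500 bases of 8 of the 10 members, and of 51.6% of the 10693 genes with such a stretch. It occurred 4 times in Fos, 3 times in Jun and Egr3 and 0 times in Fosb and Ier2, while 9.23% of genes held at least 3.

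Other immediate early genes did not share one direction. Of 20 genes in this list 19 were kept, 11 of them higher and 8 lower after clodronate. Their median log2 ratio was 0.07, and 0.02 after the correction, with 0 at least 3-fold or 2-fold different. Zfp36, whose protein binds AU-rich elements and speeds mRNA decay, was the highest of them at 677 and 835 RPKM. Rgs1, a regulator of G protein signals, had 379 and 309 RPKM, and the orphan nuclear receptor Nr4a1 had 303 and 294 RPKM. The difference furthest from 0 was that of Ier5, at 19.6 and 35.9 RPKM, followed by Nfkbiz, at 283 and 213 RPKM. Ppp1r15a, which directs dephosphorylation of eIF2α, had 132 and 172 RPKM.

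Of 14 other genes of the AP-1 and related leucine zipper families, 9 were higher and 5 lower, with a median log2 ratio of 0.12 (-0.01 after the GC content and length correction). Fosl2, the other Fos relative at a high level, went the other way from Fosb, with 176 and 152 RPKM, while Fosl1 had 2.66 and 2.90 RPKM. Jdp2, a repressor that pairs with Jun proteins, had 60.7 and 43.6 RPKM. Among the small Maf genes, which lack an activation domain, Mafk had 18.5 and 37.4 RPKM and Maff 21.4 and 13.6 RPKM. Maf, a large Maf factor found in macrophages, had 54.0 and 72.5 RPKM. Batf3, needed for a class of dendritic cells, was listed at 0 after vehicle and at 5.77 RPKM after clodronate, and was the 1 gene of the list past 3-fold on the log2(RPKM + 1) scale.

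Partners and repressors of the members, MAP kinases and their phosphatases were mixed. Of 13 partners and repressors 7 were higher and 6 lower. Jdp2, counted above with the leucine zipper genes, was among them as well. The list had a median log2 ratio of 0.09, which became -0.25 after the correction. Crem, a CREB relative whose short forms repress cAMP-driven transcription, was 3.43 times as high in the vehicle library, at 44.8 against 13.1 RPKM, the 1 gene of that list past 3-fold. Srf, the serum response factor, had 20.1 and 24.8 RPKM, its coactivator Mkl2 7.44 and 13.7 RPKM and the Egr corepressor Nab2 30.7 and 25.4 RPKM. Of 15 MAP kinases and their kinases 6 were higher and 9 lower (median -0.14, and -0.07 after the correction), with Mapk3, or ERK1, at 159 and 144 RPKM and Mapk9, or JNK2, at 22.5 and 12.2 RPKM. Of the 11 MAP kinase phosphatases 10 were kept, of which 7 were higher and 3 lower (median 0.38, and 0.10 after the correction). Dusp1, itself an immediate early gene, had 786 and 796 RPKM, more than any member, and Dusp7 had 16.2 and 26.4 RPKM.

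**Figure D4:**
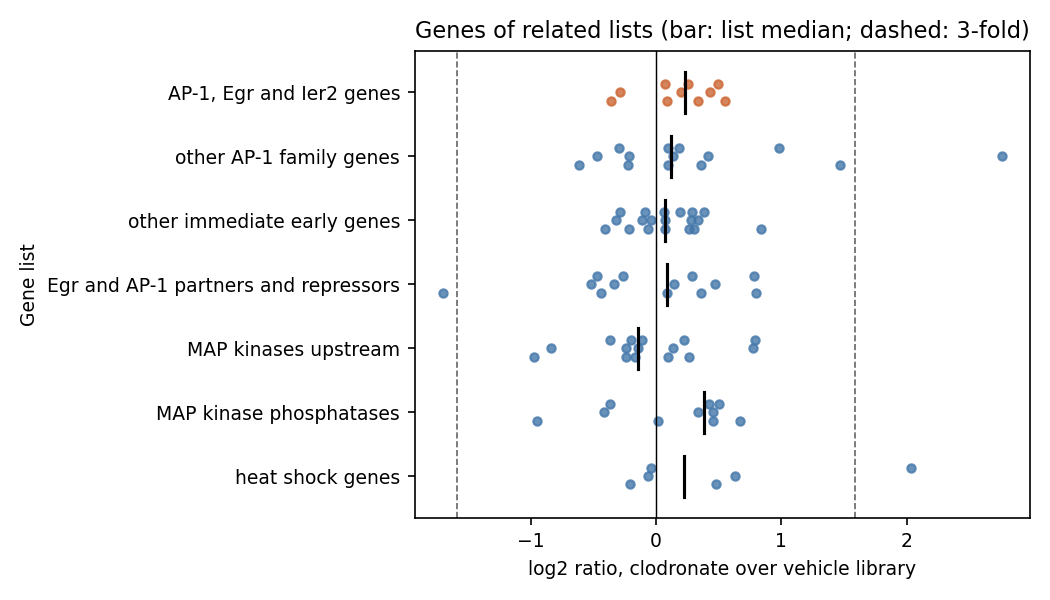
log2 ratio, clodronate over vehicle, of the genes kept in 7 lists, with 1 point per gene, a bar at the median of each list and 3-fold as dashed lines. The members span -0.36 to 0.55, a narrower range than the other lists, whose points beyond 3-fold are Batf3 and Hspa1a on the higher side and Crem on the lower side. The lists differ in size and in level, so the ranges are not compared like for like.

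Heat shock genes, which dissociation of tissue can also induce, were given beside the members because the sort required single cells. Of 6 such genes 3 were higher and 3 lower in the clodronate library. Their log2 ratios ran from -0.21 for Dnajb1 to 2.03 for Hspa1a. The median was 0.22 (0.17 after the correction), and no gene of the list lay near the uncorrected median. Their summed levels, mostly Hspa8, were 2186 and 2163 RPKM. Hsph1 had 18.8 and 26.6 RPKM, Dnajb1 23.6 and 20.3 RPKM and Hsp90aa1 166 and 159 RPKM. Hspa1a had 7.02 and 31.8 RPKM and its near-identical copy Hspa1b 11.8 and 18.9 RPKM, a split between them that is uncertain, and Hspa8 had 1959 and 1906 RPKM. The part of dissociation in the levels of the members was not tested.

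Marker genes bear on which cells the levels come from. All 10 macrophage markers had at least 10 RPKM in both libraries, and they summed to 26098 RPKM after vehicle and 24770 RPKM after clodronate. Lyz2 gave the largest part, at 10534 and 11189 RPKM. Single markers differed in both directions, with 6 higher and 4 lower in the clodronate library. C1qc had 3984 and 2043 RPKM, and Mrc1 had 174 and 289 RPKM. The 5 epithelial markers, in cells labelled as of a carcinoma, summed to 12.8 and 11.0 RPKM, and Epcam and Krt19 were listed at 0 in both. The 6 fibroblast markers summed to 154 and 75.1 RPKM, with 1 higher and 5 lower in the clodronate library. The 5 endothelial markers summed to 3.34 and 8.26 RPKM and the 5 neutrophil markers found to 16.7 and 25.8 RPKM. The 6 T and NK cell markers summed to 11.1 and 7.83 RPKM and the 4 B cell markers to 2.99 and 1.74 RPKM. S100a9, Mpo, Elane, Cd3e, Cd3g and Ncr1 were listed at 0 in both. In the same lists S100a8 had 12.7 and 23.1 RPKM and Cxcr2 4.06 and 2.69 RPKM. Cd4, at 10.3 and 7.72 RPKM, gave most of the T and NK cell sum. The part of these other cells in the values of the members was not tested.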

How the data were processed

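RNA was measured in 2 libraries, 1 per condition, and for each the authors deposited 23170 loci with RPKM, a read number scaled to transcript length and library size. The submitters' processing notes name CASAVA 1.8.2, TopHat2 2.0.9, Bowtie 0.12.9, Cufflinks 2.2.1, Cuffdiff and the build mm9, without roles. Groups were taken from the sample descriptions. Rows of a symbol were summed, and 26 symbols turned into numbers were replaced by accessions. RPKM are not counts, so no count model and no p-value was used. Genes averaging at least 1 RPKM were kept. The pseudocount was 1 and the size rule 3-fold.

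Locus starts were counted from 0, as end minus start equalled the RefSeq hairpin length for 211 of 429 microRNA loci and was 1 less for 1 of them, so 1 was added. The files give no depth. In loci of 1 accession the product of low RPKM and GENCODE M21 transcript length clustered at 77.9 (vehicle) and 95.7 (clodronate), taken as the value of 1 read, which implies about 12800000 and 10400000 fragments. The most frequent vehicle to clodronate ratio of 277 low loci, 0.816, was shared by 48 within 0.1%. Approximate reads of a member were RPKM times length over that value, with the mm9 locus length as the limit and for genes of 1 exon. Intervals (95%, exact binomial for ratios and exact Poisson for levels) cover counting error only, and were chosen after seeing the data. GC content and length were found for 98.7% of the genes kept and corrected in 10 bins each.

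All members were named, and in each list first the genes highest in mean RPKM and those of largest difference among genes averaging at least 10 RPKM. Other genes of the lists could be named too. No gene was named for a likeness to a member, which 2 libraries cannot measure. Members and lists were chosen with earlier results of these data known. Adgre1 was found as Emr1, and Ly6g under no symbol. Single values of 2 list genes are not reported here. The steps were tested on simulated data. Python 3.11.15, numpy 2.4.6, pandas 2.3.3, scipy 1.17.1 and matplotlib 3.10.9 were used.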

Additional observations from a re-analysis of the deposited data

How the results depend on the processing

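No paired analysis was possible because neither condition was repeated. Tried in turn were 0.1 as the pseudocount, no filter on low values, a minimum average of 5 RPKM, centring, upper-quartile scaling, the TPM scale, the highest row of each symbol, 2-fold and the GC content and length correction, and, chosen after seeing the data, a minimum average of 10 RPKM and small RNA loci left out. Only 5 of them, the pseudocount, centring, upper-quartile scaling, the TPM scale and the correction, can change the value of a member. In these 5 the direction of Fos, Fosb, Jun, Junb, Jund, Atf3, Egr1, Egr2 and Egr3 was the same, and Ier2 changed sign under the GC content and length correction, at -0.08. The median log2 ratio of the members was 0.14 under that correction and lay between 0.17 and 0.26 otherwise. Upper-quartile scaling gave Fos a log2 ratio of 0.03. Of the 50 values under these 5 settings 40 moved by less than the distance from the middle to the end of the counting interval and 10 by more, 6 of them under the correction and 4 under upper-quartile scaling. The number of members at least 3-fold different was 0 throughout, also at 2-fold. Genes at least 3-fold higher and lower numbered 314 and 255, and 532 and 480 with a pseudocount of 0.1, 501 and 406 on the TPM scale, 127 and 101 with a minimum average of 5 RPKM, 83 and 62 with one of 10 RPKM and 763 and 744 at 2-fold. Low depth limits Egr3 most among the members, with at most about 154 and 91 reads.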

Other observations

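Within the leucine zipper list, Batf and Batf3, partners of Jun proteins in lymphoid and dendritic cells, were the genes with the highest log2 ratios. Batf had 2.48 RPKM after vehicle and 8.63 RPKM after clodronate, and Batf3 was listed at 0 in the vehicle library. Batf2, the remaining relative, had 10.3 and 11.1 RPKM.

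Among the kinases, Mapk7, or ERK5, had 9.03 and 16.3 RPKM and Map2k2, or MEK2, had 19.5 and 34.1 RPKM, while Map2k1, or MEK1, had 42.5 and 35.9 RPKM. Among the phosphatases Dusp6, which acts on ERK, had 20.9 and 30.1 RPKM, and Dusp2, found in activated leukocytes, had 6.62 and 2.95 RPKM.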
